A study of Mus musculus with 6 samples.

Results

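Primary murine osteoblasts, stimulated or not with the complement fragment C5a, were examined for 39 genes of the osteoblast and osteocyte lineage and of mineralization. The genes were chosen by name, from lineage transcription factors, bone matrix proteins, mineralization enzymes and phosphate transporters, osteocyte genes, and receptors and adhesion molecules. Expression values came from Affymetrix Mouse Gene 1.0 ST arrays as log2 intensities per probeset, and a gene was read from a probeset that the platform annotation assigns to it alone. This held for 34 of the 39 genes, each through 1 such probeset, out of 19938 genes named on the array. Runx2, Bglap, Bglap2, Spp1 and Enpp1 are not analysed here.

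The C5a group consisted of 3 cultures that received recombinant murine C5a in proliferation medium during 4 h. The unstimulated group consisted of 3 cultures kept for 4 h in proliferation medium alone. Both groups were grown from male WT C57BL6/J mice aged 8 to 12 weeks, whose cells of passage 2 to 3 had been differentiated for 14 days in osteogenic medium. By the study's design the cells of each of 3 mice were divided between both groups, and the sample titles of both groups carry the numbers 2, 4 and 5, which are read here as the numbers of the mice. The cells grew out of long bone chips, and the methods name no sort by a marker, so that other cells of bone could be present.

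Osteoblasts arise from mesenchymal progenitors under the control of transcription factors such as Runx2 and Sp7, lay down a collagen-rich matrix and then mineralize it. Mineral forms where phosphate accumulates and pyrophosphate, an inhibitor of crystal growth, is removed, and some osteoblasts become osteocytes, which are embedded in bone and secrete regulators of phosphate balance and bone formation. C5a is a fragment released by complement activation that signals through G protein-coupled receptors, which osteoblasts carry.

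The labelled cell type was checked against its markers. Sparc, which encodes the abundant bone matrix glycoprotein osteonectin, measured 14.12, 14.20 and 14.02 in the C5a cultures of mice 2, 4 and 5, and 14.10, 14.14 and 14.04 in their unstimulated cultures. It was therefore nearly even in all 6 arrays. The collagen gene Col1a1 had means of 13.49, 13.77 and 13.36 over the cultures of mice 2, 4 and 5. Those of Col1a2 were 13.65, 13.79 and 13.45. The osteoblast genes Alpl, Ibsp and Sp7 were less even, since their levels differed between mice. The arrays of mouse 5 stood apart in markers of other cells as well. The mean log2 value of 21 macrophage and osteoclast markers was 8.62, 8.88 and 6.21 in the C5a cultures of mice 2, 4 and 5, and 8.87, 9.24 and 6.13 in the unstimulated cultures. Cd68, a lysosomal protein of macrophages, was at 10.79, 11.19 and 6.78 in the C5a cultures, against 11.11, 11.62 and 6.51 in the unstimulated cultures, and Lyz2, the lysozyme of myeloid cells, showed the same order. The list mean, Cd68 and Lyz2 were thus low in mouse 5 with and without C5a. The osteoclast genes of the list differed less. Acp5 had means of 9.13, 8.48 and 8.10 over the cultures of mice 2, 4 and 5, and Ctsk of 10.73, 10.91 and 10.37. Dcstamp was lowest in mouse 5, at 4.75, while Calcr and Oscar were highest there, at 5.02 each. Over the arrays, the mean of 11 adipocyte markers spanned 6.50 to 6.99 in C5a cultures and 6.52 to 7.20 in unstimulated cultures. That of 12 chondrocyte markers spanned 7.54 to 8.00 and 7.67 to 8.06, and that of 11 endothelial markers 5.65 to 6.01 and 5.69 to 6.01. Single markers of these lists differed more between mice. In the adipocyte list, Cd36 had means of 8.95, 9.85 and 4.53 in mice 2, 4 and 5, while Plin4 had 7.08, 6.15 and 7.62. Mouse 5 was lowest for 5 of these 11 markers. In the endothelial list, Eng had means of 7.31, 9.73 and 10.24, while Pecam1 had 5.48, 5.46 and 5.41. Mouse 5 was lowest for 3 of these 11. Where leaving out mouse 5 moved a call between mice for the 34 genes, the adjusted p without it is given with that comparison. In these bulk samples, fewer cells of a type and less RNA per cell cannot be told apart.

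Promoters of 22 of the 34 genes were found in RefSeq (build GRCm38.p6), in 30 windows of 300 bases that run from 250 bases before to 50 bases after a gene start. The windows of 4 genes are printed because the results turn on them. Slc20a1 and Kcnk2 had the smallest p-values for C5a, and Ibsp and Dmp1, neighbours on chromosome 5, were among the genes that differed between mice. Capitals mark matches, on either strand, to TGTGGT (the core bound by RUNX factors) or TGANTCA (the core of AP-1 sites). Slc20a1 is shown from chr2:129198523-129198822 on the plus strand, Kcnk2 from chr1:189344143-189344442 on the minus strand, Ibsp from chr5:104299037-104299336 on the plus strand and Dmp1 from chr5:104202367-104202666 on the plus strand, each 5′ to 3′ in the direction of the gene. For Slc20a1, Kcnk2 and Dmp1, which have several windows, the one that holds a match was taken.
Slc20a1: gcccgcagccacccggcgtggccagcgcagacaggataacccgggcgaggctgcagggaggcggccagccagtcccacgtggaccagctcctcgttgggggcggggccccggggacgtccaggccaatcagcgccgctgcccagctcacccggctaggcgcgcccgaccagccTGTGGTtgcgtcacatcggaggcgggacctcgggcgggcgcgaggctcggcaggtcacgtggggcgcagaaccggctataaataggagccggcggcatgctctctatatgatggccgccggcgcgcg
Kcnk2: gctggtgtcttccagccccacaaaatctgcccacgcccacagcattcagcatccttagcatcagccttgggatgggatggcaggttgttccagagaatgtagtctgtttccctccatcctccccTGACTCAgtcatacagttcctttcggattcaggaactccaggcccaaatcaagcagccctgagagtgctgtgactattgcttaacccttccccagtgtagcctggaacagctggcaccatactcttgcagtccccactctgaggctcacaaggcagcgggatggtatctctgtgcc
Ibsp: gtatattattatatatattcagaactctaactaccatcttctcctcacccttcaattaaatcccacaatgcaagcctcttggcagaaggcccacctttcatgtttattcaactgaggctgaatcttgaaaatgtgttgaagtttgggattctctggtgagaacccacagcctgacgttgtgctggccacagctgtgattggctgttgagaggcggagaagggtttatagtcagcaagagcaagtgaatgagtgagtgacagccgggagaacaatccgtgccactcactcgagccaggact
Dmp1: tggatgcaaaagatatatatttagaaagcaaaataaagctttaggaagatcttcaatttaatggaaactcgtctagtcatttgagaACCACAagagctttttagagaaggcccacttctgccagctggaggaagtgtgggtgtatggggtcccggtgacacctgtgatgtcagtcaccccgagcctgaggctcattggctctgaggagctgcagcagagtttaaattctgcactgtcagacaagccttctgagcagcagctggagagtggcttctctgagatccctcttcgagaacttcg

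TGTGGT occurred in the windows of 4 of the 22 genes, Dmp1, Mepe, Slc20a1 and Sparc, which was 13.3% of their 30 windows, against 16.8% of all 32851 promoter windows. TGANTCA was found for Gja1, Kcnk2 and Phospho1, in 10% of the 30 windows and in 7.81% of all windows. TAATTA, a core of homeodomain factors, was found for Mepe, Msx2, Prrx1 and Pth1r, in 13.3% of the 30 windows and in 5.29% of all windows. The 3 motifs cannot match the same bases in full. The printed Ibsp window held none of them. A match is only a description of the letters and not a site of binding.

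The first comparison asked which osteoblast genes respond to C5a within 4 h. Slc20a1, a phosphate transporter gene, was 2.96-fold higher with C5a. The genes of the cadherin Cdh11 and the potassium channel Kcnk2 had log2 differences of -0.63 and -0.55. The matrix genes Sparc, Bmp1 and Fap had differences of at most 0.13 in size, while those of the matrix genes Tnn, Ibsp and Mgp were 0.74, -0.43 and 0.32. None of the 34 genes passed an adjusted p of 0.05 in limma, neither without the pairing of cultures (0.0141% of all 35556 probesets passed) nor in a blocked fit, which takes the mouse as a block (0.0112% passed). At an unadjusted p under 0.05, 7 genes were counted, 3 higher and 4 lower with C5a, against 11.0% of all probesets. With the mouse as a block they were 16, of which 6 were higher and 10 lower, against 16.2% of all probesets. The thresholds named in the methods, which write the fold change as an upper bound and do not mention an adjustment, were read as at least 1.5-fold with an unadjusted p under 0.05. By these thresholds and limma, 1 gene was higher with C5a, Slc20a1 (1.47% of all probesets were called higher), and 1 was lower, Cdh11 (1.12% were called lower). With the mouse as a block, 2 were higher, Slc20a1 and Tnn (1.71% of all probesets), and 3 lower, Dlx5, Cdh11 and Cd200 (1.57%). The median log2 difference, C5a minus unstimulated, was -0.02 over the 34 genes, and 0.0070 over all probesets. The values were above 0 for 15 of the genes and below 0 for 19, while 52.5% of all probesets were above 0.

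**Figure D1:**
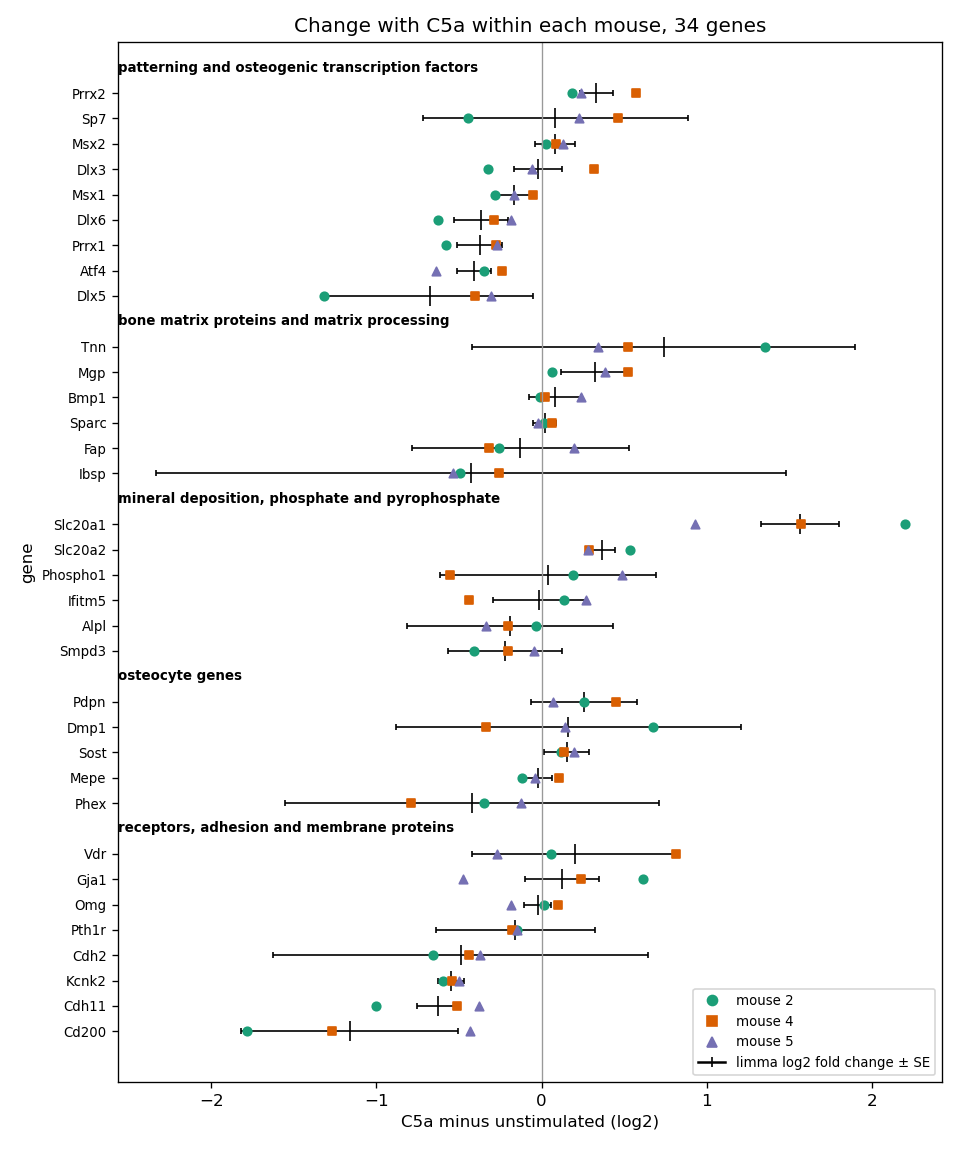
Log2 difference between the C5a and the unstimulated culture of each mouse (horizontal axis) for the 34 genes (rows, grouped by role), with 1 point for each of the 3 mice. The vertical tick and bar give the unblocked limma difference ± its SE. The points of Slc20a1 reach farthest to the right, with differences of 2.20, 1.57 and 0.93, and those of Cd200 farthest to the left. In the 3 mice, 22 of the 34 genes differed in the same direction, 8 higher and 14 lower. The share over all probesets was not computed, so this count is a description only.

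The phosphate transporters had the clearest differences among the 6 measured genes of mineral deposition. Slc20a1 (probeset 10475990), which encodes the sodium-phosphate cotransporter PiT-1, measured 10.64, 10.27 and 9.74 in the C5a cultures of mice 2, 4 and 5, against 8.44, 8.70 and 8.81 in their unstimulated cultures. Every C5a culture was above every unstimulated one. The log2 difference was 1.56 ± 0.24 (SE, n = 3 per group), or 2.96-fold, with an adjusted p of 0.146 in limma and 0.106 in the blocked fit. Its homologue Slc20a2 (10570837), encoding PiT-2, measured 9.21, 9.12 and 9.05 in the C5a cultures, against 8.68, 8.83 and 8.77 in the unstimulated cultures. The groups again did not overlap, but the log2 difference was only 0.37 (95% interval 0.18 to 0.55, adjusted p = 0.178). Without mouse 5, the log2 differences were 1.88 for Slc20a1 and 0.41 for Slc20a2.

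None of the other genes of this group reached the methods' thresholds. Alpl, the tissue-nonspecific alkaline phosphatase that hydrolyses pyrophosphate, averaged 10.29 ± 0.97 in C5a cultures and 10.48 ± 0.90 in unstimulated cultures (SD, n = 3 each), and its blocked 95% interval was -0.42 to 0.04. Phospho1, a phosphatase of matrix vesicles, Smpd3, a sphingomyelinase required for mineralization, and Ifitm5, an osteoblast membrane protein, had log2 differences of 0.04, -0.22 and -0.01. In the blocked fit, the 95% intervals of these 3 differences were -0.51 to 0.59, -0.47 to 0.03 and -0.42 to 0.39.

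Of the 8 receptors, adhesion and membrane proteins, 6 had log2 differences below 0 and 2 above. Cdh11 (10581013), the osteoblast cadherin of cell to cell contacts, measured 11.92, 12.26 and 12.31 in C5a cultures, against 12.92, 12.77 and 12.69 in unstimulated cultures. All 3 C5a values were below the lowest unstimulated value. The log2 difference was -0.63 ± 0.13 (SE, n = 3 per group, adjusted p = 0.177, and 0.142 in the blocked fit). Without mouse 2 it was -0.45, which is less than 1.5-fold. Kcnk2 (10360972), which encodes the 2-pore potassium channel TREK-1, measured 6.64, 6.58 and 6.51 in C5a cultures, against 7.24, 7.12 and 7.02 in unstimulated cultures. The 3 mice were close to each other, with differences of -0.60, -0.55 and -0.50. The mean of -0.55 ± 0.08 (SE, adjusted p = 0.146, and 0.0902 in the blocked fit) lay just short of 1.5-fold.

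Cd200 (10439651), a membrane glycoprotein with a receptor on myeloid cells, measured 5.88, 7.55 and 8.30 in the C5a cultures of mice 2, 4 and 5, against 7.67, 8.82 and 8.73 in the unstimulated cultures. Each C5a culture was below the unstimulated culture of its own mouse, but the groups overlapped. The log2 difference of -1.16 had an SE of 0.66 (adjusted p = 0.644), which was 0.26 once the mouse was a block (adjusted p = 0.146). Cdh2, or N-cadherin, differed by -0.66, -0.44 and -0.37 in mice 2, 4 and 5, well below the distance between the mice (blocked SE 0.09, adjusted p = 0.114). Gja1, which encodes the gap junction protein connexin 43, had differences of 0.61, 0.24 and -0.48, so that mouse 5 went the other way. Pth1r, the parathyroid hormone receptor, Vdr, the vitamin D receptor, and Omg, a glycoprotein known from myelin, had log2 differences of -0.16, 0.20 and -0.02. Omg was also among the dimmest of the genes, between percentiles 15.5 and 20.0 of its array.

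**Figure D2:**
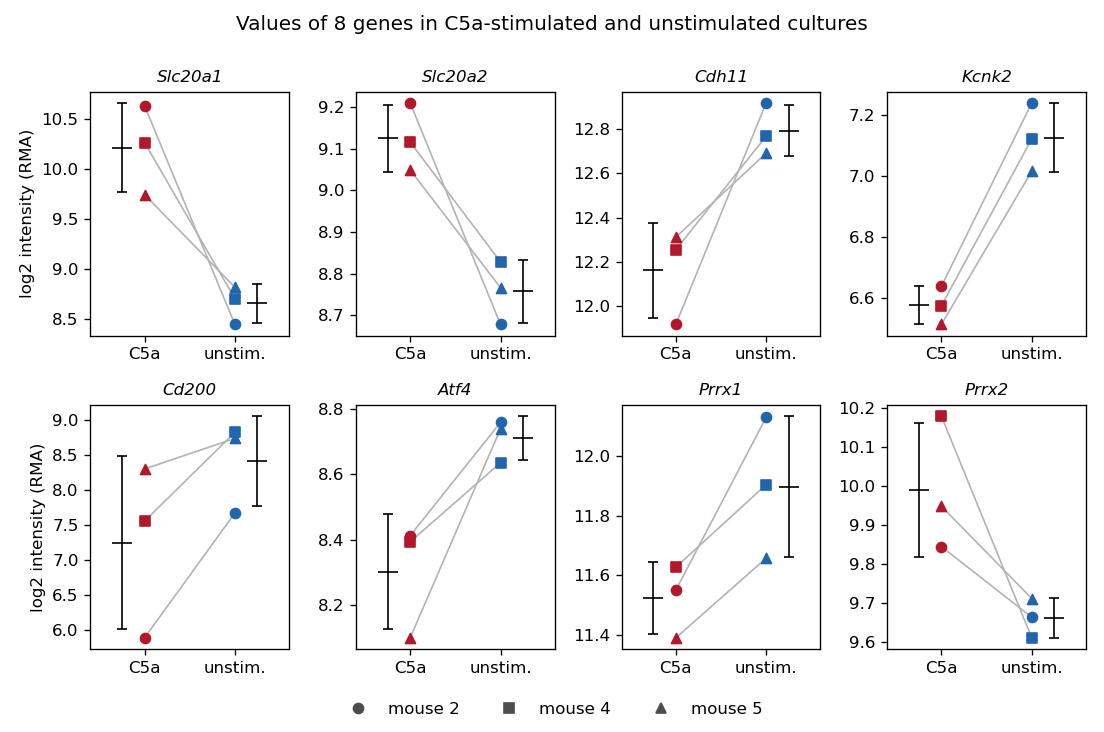
Log2 intensity (vertical axis) of 8 genes in the 3 C5a cultures (left) and the 3 unstimulated cultures (right), with a line joining the 2 cultures of a mouse and the group mean ± SD (n = 3) beside the points. Each panel has its own scale, which does not start at 0. The groups of Slc20a1, Slc20a2, Cdh11, Kcnk2, Atf4, Prrx1 and Prrx2 do not overlap, whereas those of Cd200 do.

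Among the 9 transcription factors measured, 6 had log2 differences below 0 and 3 above, and none passed the methods' thresholds without the pairing. Atf4, which drives amino acid uptake and late osteoblast genes, measured 8.41, 8.39 and 8.10 in C5a cultures, against 8.76, 8.64 and 8.74 in unstimulated cultures. The log2 difference was -0.41 (adjusted p = 0.234). The paired-related homeobox genes of limb mesenchyme differed in sign. Prrx1 measured 11.55, 11.63 and 11.39 with C5a, against 12.13, 11.90 and 11.66 without (difference -0.38, adjusted p = 0.393). Prrx2 measured 9.84, 10.18 and 9.95 with C5a, against 9.66, 9.61 and 9.71 without (difference 0.33, adjusted p = 0.298). For these 3 factors the C5a and unstimulated values did not overlap, and all 3 differences were below 1.5-fold. Over the 34 genes, 3 did not overlap with C5a higher (7.89% of all probesets) and 4 with C5a lower (7.29%).

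Dlx5 (10543058), a homeobox activator of osteoblast differentiation, measured 7.09, 8.54 and 6.81 in the C5a cultures of mice 2, 4 and 5, against 8.41, 8.95 and 7.12 in the unstimulated cultures. It was lower with C5a in every mouse, by most in mouse 2. The log2 difference was -0.68 ± 0.63 (SE, adjusted p = 0.827). The blocked fit gave an SE of 0.22 and an adjusted p of 0.239. Its genomic neighbour Dlx6 differed by -0.63, -0.29 and -0.18 in the 3 mice. Dlx3, Msx1, Msx2 and Sp7, further factors of skeletal patterning and osteoblast commitment, had log2 differences between -0.17 and 0.08.

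The 6 measured matrix genes included none past the methods' thresholds without the pairing. Tnn (10359307), which encodes the tenascin found in osteogenic tissue, measured 10.49, 11.30 and 7.82 in C5a cultures, against 9.14, 10.78 and 7.47 in unstimulated cultures. It was higher with C5a within each mouse, although the 2 cultures of mouse 5 were far below the others. The log2 difference of 0.74 had an SE of 1.16 (adjusted p = 0.926) and, in the blocked fit, of 0.21 (adjusted p = 0.199). Sparc had a difference of 0.02 with a 95% interval of -0.16 to 0.19. Mgp, an inhibitor of calcification, Bmp1, the protease that trims procollagen, and Fap, a fibroblast-associated serine protease, had differences of 0.32, 0.08 and -0.13. For Mgp the blocked 95% interval was 0.04 to 0.61 (adjusted p = 0.26).

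None of the 5 osteocyte genes passed the methods' thresholds in either fit. Their log2 differences were 0.16 for Dmp1, a mineral-binding matrix protein, -0.42 for Phex, a protease whose loss causes phosphate wasting, 0.26 for Pdpn, a glycoprotein of early osteocytes, 0.15 for Sost, which encodes the Wnt inhibitor sclerostin, and -0.02 for Mepe, a phosphoglycoprotein of mature osteocytes. Mepe lay between percentiles 23.5 and 28.1 of its array and measured 4.59, 4.59 and 4.66 in C5a cultures, against 4.71, 4.49 and 4.71 in unstimulated cultures. In the blocked fit the 95% intervals were -0.79 to -0.05 for Phex and 0.0048 to 0.51 for Pdpn, with adjusted p-values of 0.259 and 0.3. For Sost the values were 6.73, 6.81 and 7.12 with C5a, against 6.61, 6.68 and 6.92 without.

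The second comparison set the 3 mice against each other over both treatments, since the widest distances between arrays lay between mice. Ibsp, Alpl, Dmp1 and Sp7 were highest in mouse 4, as 18 of the 34 genes were, Phex and Fap were highest in mouse 2, and Cdh2 was highest in mouse 5. Each mouse gave 1 C5a and 1 unstimulated culture, so the mice were compared against the spread between the 2 cultures of a mouse that the treatment did not account for. The level differed between mice for 10 of the 34 genes (moderated F-test of limma, adjusted p under 0.05), against 2.50% of all probesets. The distance between the highest and the lowest mouse mean was above 1 on the log2 scale for 13 genes (38.2%), against 2.98% of all probesets, and its median was 0.47 over the 34 genes, against 0.174 over all probesets. For 26 genes this distance exceeded the size of the C5a difference, but the share over all probesets was not computed. A range over 3 mice of 2 cultures each tends to exceed a difference between 2 groups even without any effect. The count of 26 therefore does not compare the mice with C5a. Of the 10 genes, 8 were lowest in mouse 5 and 2 in mouse 2, while 7 were highest in mouse 4, 2 in mouse 2 and 1 in mouse 5. Of the macrophage and osteoclast markers, 13 of 21 differed between mice in the same test, and 18 were lowest in mouse 5. The osteoclast genes Acp5, Ctsk, Calcr, Dcstamp, Ocstamp and Oscar were not among the 13. In this test 5 of 12 chondrocyte, 2 of 11 adipocyte and 1 of 11 endothelial markers differed. Of 10 smooth muscle and pericyte markers, 0 differed. The part of these other cells in these results was not tested.

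Ibsp, which encodes the acidic mineral-binding protein bone sialoprotein, varied most. It measured 11.26, 12.62 and 7.02 in the C5a cultures of mice 2, 4 and 5, against 11.75, 12.88 and 7.56 in the unstimulated cultures. Both cultures of mouse 5 were more than 3 log2 units below every other culture. The mouse means were 11.51, 12.75 and 7.29, so that mouse 4 was 43.9-fold above mouse 5 (adjusted p = 0.00133). Within each mouse the C5a culture was slightly lower, by differences of -0.49, -0.26 and -0.54 (adjusted p = 0.131 with the mouse as a block).

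**Figure D3:**
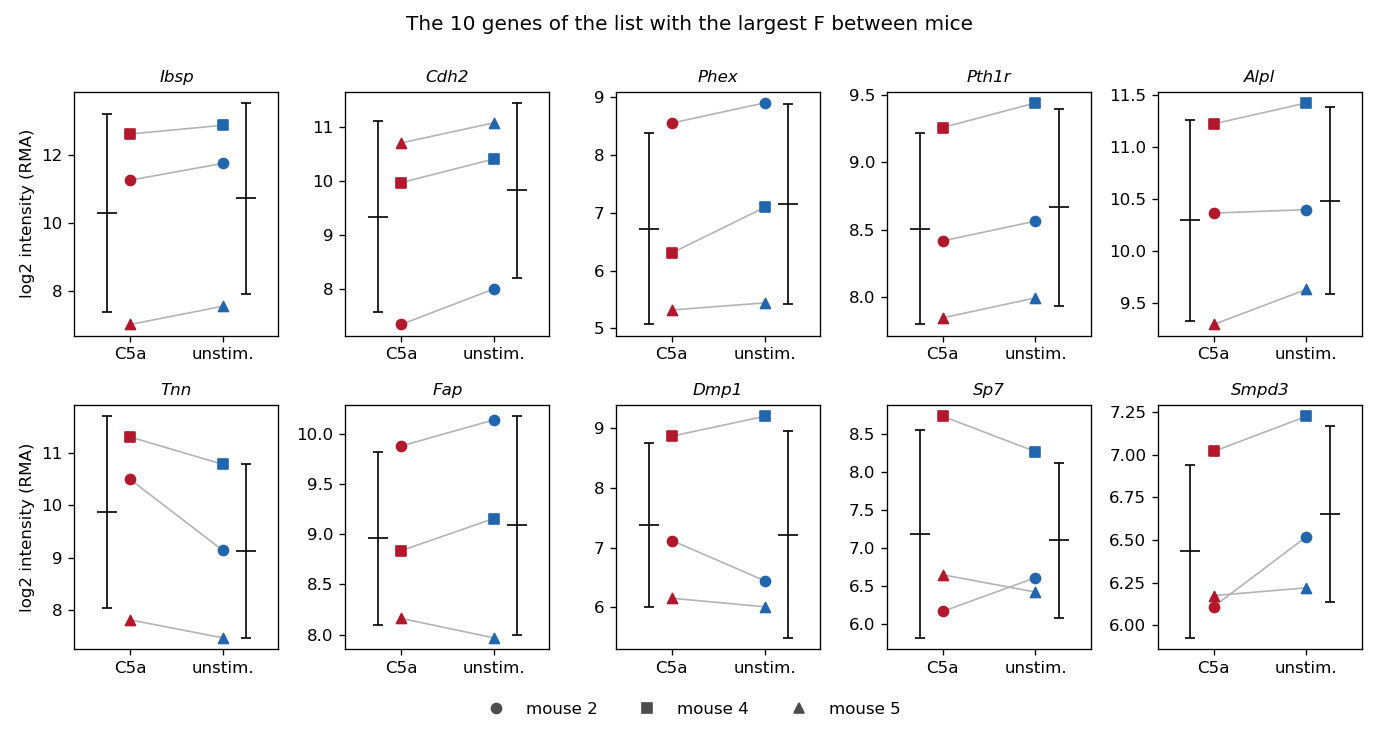
Log2 intensity (vertical axis) of the 10 genes with the largest F between mice, in the C5a (left) and unstimulated (right) cultures of mice 2, 4 and 5, joined by mouse, with the group mean ± SD (n = 3) beside the points and a scale of its own in each panel. By the mean of its 2 cultures, mouse 5 is lowest for 8 of the genes, and mouse 2 for Cdh2 and Sp7.

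Alpl, Pth1r and Tnn had the same order of mice as Ibsp, with mouse 4 highest and mouse 5 lowest. Alpl measured 10.36, 11.22 and 9.29 in the C5a cultures of mice 2, 4 and 5, against 10.39, 11.42 and 9.63 in the unstimulated cultures, with a distance of 1.86 (3.63-fold) between mice 4 and 5 (adjusted p = 0.00957). Pth1r measured 8.42, 9.26 and 7.85 with C5a, against 8.56, 9.44 and 7.99 without (adjusted p = 0.00926). For Tnn the mouse means were 9.81, 11.04 and 7.64, a distance of 10.5-fold (adjusted p = 0.0182). In each of these genes the 2 cultures of a mouse lay closer together than either did to those of the next mouse, apart from Tnn, whose cultures of mouse 2 were 1.35 apart. Smpd3 had means of 6.31, 7.12 and 6.20 (adjusted p = 0.049), so that mice 2 and 5 were close together and mouse 4 stood above both.

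Dmp1 and Sp7 were also highest in mouse 4. Dmp1 measured 7.12, 8.87 and 6.15 in the C5a cultures of mice 2, 4 and 5, against 6.44, 9.20 and 6.01 in the unstimulated cultures, and the means of mice 4 and 5 were 7.78-fold apart (adjusted p = 0.0201). Sp7, the zinc finger factor osterix that is required for osteoblast formation, measured 6.16, 8.73 and 6.64 with C5a, against 6.60, 8.26 and 6.41 without (adjusted p = 0.033). In both genes mouse 4 stood above both others with and without C5a. Dmp1, Ibsp and Mepe lie within 127.8 kb on chromosome 5, but Mepe, the third of them, had mouse means of 4.65, 4.54 and 4.68 (adjusted p = 0.72). Its probeset was dim, between percentiles 23.5 and 28.1 of its array, so a difference between mice could have been missed.

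Phex and Fap were highest in mouse 2. Phex measured 8.56, 6.30 and 5.32 in the C5a cultures of mice 2, 4 and 5, against 8.91, 7.09 and 5.44 in the unstimulated cultures, with 10.2-fold between mice 2 and 5 (adjusted p = 0.00774). Fap measured 9.88, 8.84 and 8.16 with C5a, against 10.14, 9.16 and 7.97 without, with 3.85-fold between mice 2 and 5 (adjusted p = 0.0197). In both genes the 3 mice were ordered 2, 4, 5 with and without C5a. Cdh2 had the opposite order. It measured 7.33, 9.97 and 10.71 with C5a, against 7.99, 10.41 and 11.08 without, and mouse 5 was 9.39-fold above mouse 2 (adjusted p = 0.00269).

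Among the genes that did not pass this test, Phospho1 (means 6.93, 7.86 and 5.98 in mice 2, 4 and 5, adjusted p = 0.0739), Pdpn (10.61, 10.84 and 11.51, adjusted p = 0.0618), Vdr (6.89, 7.94 and 8.66, adjusted p = 0.0913) and Dlx5 (7.75, 8.75 and 6.96, adjusted p = 0.0913) came closest. Pdpn and Vdr were highest in mouse 5, as Cdh2 was. At the other end, Slc20a2, Cdh11, Omg, Prrx2 and Sparc had distances between mice of at most 0.14. With the 4 arrays left without mouse 5, mice 2 and 4 differed in 1 of the 34 genes, Cdh2 (adjusted p = 0.0496), with 37 probesets called in all, and in 0 of the 21 macrophage and osteoclast markers. In this test without mouse 5, the adjusted p was 0.109 for Ibsp, 0.129 for Alpl, 0.129 for Pth1r and 0.25 for Tnn. It was 0.159 for Smpd3, 0.146 for Dmp1, 0.141 for Sp7, 0.0831 for Phex and 0.109 for Fap. Without mouse 4 the genes counted were 7, and without mouse 2 they were also 7.

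**Figure D4:**
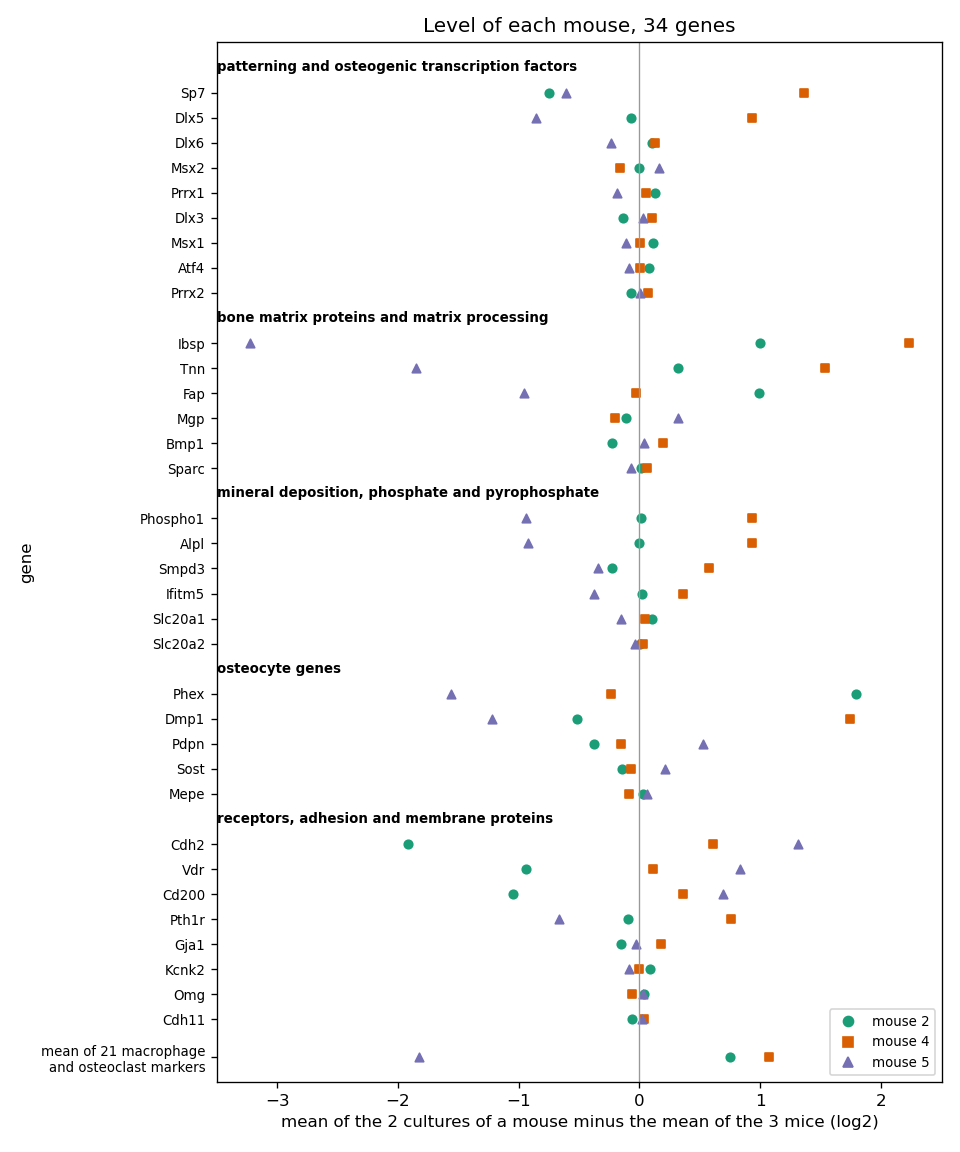
Mean log2 level of each mouse (horizontal axis) over its C5a and its unstimulated culture, relative to the mean of the 3 mice, for the 34 genes (rows) and, in the last row, for the mean of 21 macrophage and osteoclast markers. The widest distance is that of Ibsp, 5.46 between mice 4 and 5, whereas Slc20a2 spans 0.06.

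A comparison list held 30 other osteoblast and mineralization genes, of which 28 were measured. None passed the adjusted threshold for C5a. By the methods' thresholds 4 were higher with C5a and 2 lower, against 1.47% and 1.12% of all probesets. In the blocked fit these thresholds called 4 genes higher and 3 lower, against 1.71% and 1.57% of all probesets. Between mice 9 of the 28 differed, against 2.50% of all probesets. The median log2 difference was 0.01. Fam20c, the kinase of secreted matrix phosphoproteins, measured 8.84, 8.55 and 8.72 in C5a cultures, against 8.16, 8.16 and 8.00 in unstimulated cultures (difference 0.60, adjusted p = 0.151). Cd44, a receptor for hyaluronan and osteopontin, measured 10.10, 9.99 and 9.98 with C5a, against 8.44, 9.28 and 9.12 without (difference 1.08, adjusted p = 0.177). The groups did not overlap in either gene. Fgfr2, a fibroblast growth factor receptor of osteoprogenitors, measured 8.38, 9.48 and 8.89 with C5a, against 10.12, 10.57 and 10.06 without (difference -1.33, adjusted p = 0.196, and 0.0869 in the blocked fit). Lox, which cross-links collagen, differed by 0.29 (adjusted p = 0.206). Ank, singled out after its values were seen because it exports pyrophosphate, measured 11.48, 11.10 and 10.51 with C5a, against 10.19, 10.23 and 9.65 without (difference 1.01, adjusted p = 0.268, and 0.0869 in the blocked fit).

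Markers of other cells were read beside the C5a comparison. For the 21 macrophage and osteoclast markers, the median difference between the C5a and the unstimulated culture was -0.32, -0.39 and 0.11 in mice 2, 4 and 5, and 0 of the 21 passed the methods' thresholds without the block. Of 10 smooth muscle and pericyte markers, 4 were higher with C5a by these thresholds, against 1.47% of all probesets. They were Cspg4 at 1.70, Des at 1.30, Tagln at 0.70 and Cnn1 at 0.63, each with groups that did not overlap. The median differences of the 10 were 0.34, 0.36 and 0.03 in mice 2, 4 and 5. Of the 10, 8 were above 0 and 2 below, and Acta2, the smooth muscle actin, differed by 0.11. Adipoq, Acan and Pecam1, which mark adipocytes, cartilage and endothelium, had differences of -0.32, 0.04 and -0.06 and adjusted p-values of 0.825, 0.983 and 0.911. Some chondrocyte, adipocyte and macrophage markers differed more than Adipoq, Acan and Pecam1. They, and Cspg4, Des, Tagln and Cnn1, are named after their values were seen. The chondrocyte marker Sox9 passed the methods' thresholds at -0.71, with groups that did not overlap (adjusted p = 0.42), and with the block the adipocyte markers Lpl at -0.64 and Plin4 at -0.63 and the macrophage marker Mrc1 at -0.62 passed them too. The part of these cells in the C5a differences of the osteoblast genes was not tested.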

How the data were processed

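Total RNA of 6 cultures was hybridized to Affymetrix Mouse Gene 1.0 ST arrays. The deposited values are log2 intensity summaries per probeset, which the authors made by RMA (robust multiarray average) with Expression Console (Affymetrix) and BRB-ArrayTools. Their versions are not given in the sources used here. The table has no detection calls and no counts, and the number of arrays limits the precision.

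The deposited values were analysed without further normalization or filter. C5a and unstimulated cultures were compared over all 35556 probesets with limma (version 3.58.1, R 4.3.3) by lmFit and eBayes, with Benjamini-Hochberg adjustment. The methods' thresholds, whose fold change is written as an upper bound and whose p is not said to be adjusted, were read as at least 1.5-fold with an unadjusted p under 0.05. Levels between mice were tested with treatment and mouse in the model, by the moderated F. The scripts were tested on simulated data. Probesets were named from the platform annotation.

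By the series' design text, each mouse gave cells to both groups. The titles repeat 3 numbers in both groups without calling them mice, and they were read as such. Deviations from group means correlated at 0.495 to 0.684 between cultures of the same number and at -0.446 to -0.035 between numbers. For the 34 genes, blocked values are printed where a call at the methods' thresholds moves, and for some other genes. They are not printed for every such gene of the other lists.

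Genes past the methods' thresholds in either limma fit and the 10 with the largest F between mice were described in full, and others by role; of the comparison list, the 4 with the smallest p. Atf4, Prrx1, Prrx2, Slc20a2 and Kcnk2 were added after their values were seen. The genes, lists and tests were chosen with earlier results of these data known. The labels state passage 2 to 3, the paper only the earlier of these. The 11 alternatives comprise the pairing, other tests, centring and normalization, filters and left-out arrays or mice.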

Additional observations from a re-analysis of the deposited data

How the results depend on the processing

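The count of 0 genes past the adjusted threshold for C5a was the same under all 18 settings in which it was recomputed. At an unadjusted p under 0.05 limma counted 7 of the 34 genes, and the methods' t-test and the paired t-test counted 6 each. The methods' thresholds called 2 genes, but 5 with the mouse as a block (replicate block), 0 with the paired t-test, and 1 to 3 when 1 array or mouse was left out. The value of 1 came without the C5a or the unstimulated culture of mouse 2, where Cdh11 was at -0.51 and -0.57. The block changed no call at the adjusted threshold. Genes differing between mice numbered 9 to 15 under other filters, centring and normalization, and 1 to 10 with an array or mouse left out. They were 5 without the unstimulated culture of mouse 2, 2 without that of mouse 5, 4 without the C5a culture of mouse 5, and 1 without mouse 5. The median log2 difference of the 34 genes, -0.02, lay between -0.24 and 0.083 in these leave-outs.

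For 10 of 19 named genes, leaving out an array turned the direction of the C5a difference, since the level of the mouse then enters it. Dmp1 also turned without both cultures of mouse 2 (-0.096), and Sp7 without both of mouse 4 (-0.11). For these genes the differences within mice 2, 4 and 5 disagreed in sign. They were 0.68, -0.33 and 0.14 for Dmp1, and -0.44, 0.46 and 0.23 for Sp7. The leave-out ranges were -0.65 to 0.31 for Alpl, -1.41 to 0.51 for Cdh2, -0.58 to 1.15 for Dmp1, -0.69 to 0.40 for Fap, -2.01 to 1.21 for Ibsp, -1.34 to 0.46 for Phex, -0.53 to 0.23 for Pth1r, -0.51 to 0.065 for Smpd3, -0.69 to 0.67 for Sp7 and -0.088 to 1.77 for Tnn. Slc20a1 stayed between 1.25 and 1.88 and Kcnk2 between -0.60 and -0.49. At -0.60, without the unstimulated culture of mouse 5, Kcnk2 passed the methods' thresholds in limma (unadjusted p = 0.00072). Cd200 ranged from -1.69 without the C5a culture of mouse 5 to -0.48 without that of mouse 2, and Dlx5 from -1.21 to -0.28 without the C5a and the unstimulated culture of mouse 4. Without the block, Cd200 passed the methods' thresholds in limma when the C5a culture of mouse 5 (unadjusted p = 0.0405) or both cultures of mouse 2 (unadjusted p = 0.0407) were left out. With 3 arrays per group, 5 of 35556 probesets passed the adjusted threshold, so a difference that missed it is not shown to be absent. The probesets of Omg and Mepe were dim. The probeset with the largest spread was the same probeset for every gene.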
